A study of Rattus norvegicus with 15 samples.

Results

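The effect of oxygen given to the mother on the fetal ductus arteriosus was read by setting the 3 arrays of the oxygen ductus against the 3 arrays of the fetal ductus, 6 of the 15 arrays of the series, chosen by their titles. The oxygen ductus came from rat fetuses of gestational day 19 whose dams had been kept in 100% oxygen for 3 h before caesarean section. The fetal ductus came from fetuses of the same day and normoxic dams. Both were dissected in ice-cold medium gassed with 2.5% oxygen and freed of adhering tissue. The other 9 arrays hold the newborn ductus and newborn aorta, taken 3 h after vaginal delivery in medium with 12.5% oxygen, and the day 19 aorta of normoxic dams. RNA of a state went to 1 array of each of 3 Affymetrix rat chips (A, B and C), which carry different probe sets and are not replicates. The labels name no strain and do not say how many fetuses or dams an array represents nor whether the 3 chips of a state shared an RNA extract, and on chips B and C the descriptions are shared by every state, which leaves the titles to tell them apart. The newborn aorta array of chip A has a title that counts its hours from coitum and was taken as newborn from its description. With 1 array per state and chip no test could be made, the number of arrays limits the precision, and every ratio below compares 2 arrays of the same chip.

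The ductus arteriosus carries blood from the pulmonary artery to the aorta past the fetal lung and narrows after birth, when the oxygen tension of its blood increases. Oxygen acts on its smooth muscle through potassium and calcium channels and through endothelin, while prostaglandin E2 and nitric oxide keep the fetal vessel open. In all cells, prolyl hydroxylases that use oxygen mark hypoxia-inducible factors for destruction, so transcription of genes such as Slc2a1 and Vegfa is known to be lower when oxygen is plentiful.

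Most genes of the oxygen ductus lay within 1.5-fold of the fetal ductus, with 4.44% higher and 5.38% lower by that fold or more. Genes of the hypoxia response such as the glucose transporter Slc2a1 were mostly lower or near the fetal level. Genes of antioxidant enzymes, the respiratory chain and ribosomal proteins were mostly higher, but most of them by less than 1.5-fold. The cardiac hormone gene Nppa was about 2-fold higher on all 4 of its probe sets. Immediate early and glucocorticoid-responsive genes, high in the newborn ductus, were near or below the fetal level in the oxygen ductus. Many single-gene differences were not shared by other probe sets of the same gene, and the oxygen arrays had lower 5′ to 3′ signal ratios of beta-actin and Gapdh than any other array, so both are described before the genes.

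Signal at the 5′ end of beta-actin and Gapdh was low on all 3 oxygen arrays. The 5′ to 3′ signal ratio of beta-actin was 0.307 to 0.393 on them and 0.662 to 0.840 on the 12 other arrays, and that of Gapdh was 0.401 to 0.592 against 0.633 to 0.793, without overlap in either. The ratios of hexokinase overlapped over the chips, at 0.0799 to 0.291 against 0.210 to 0.405. Its 5′ signals were at most 196 and on every array under the floor used below. Within a chip the oxygen array had the lowest ratio on A (0.080 against 0.210 to 0.359) and C (0.192 against 0.348 to 0.387). On B it did not (0.291 against 0.265 to 0.405). A ratio of this kind compares probe sets near the start and the end of the same transcript, and is read as a sign of how much of the transcript's length was labelled. The bacterial control transcripts BioB, BioC and CreX had 5′ to 3′ ratios on the oxygen arrays within the range of the other arrays (for BioB 1.06 to 1.36 against 0.683 to 1.73), and that of BioDn was above it (0.252 to 0.299 against 0.111 to 0.2003). Median signal was also lowest on the oxygen array of each chip, at 126 against 151 to 163 on chip A, 219.8 against 243 to 254 on chip B and 226 against 238 to 252 on chip C, although the trimmed mean was scaled alike.

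**Figure D1:**
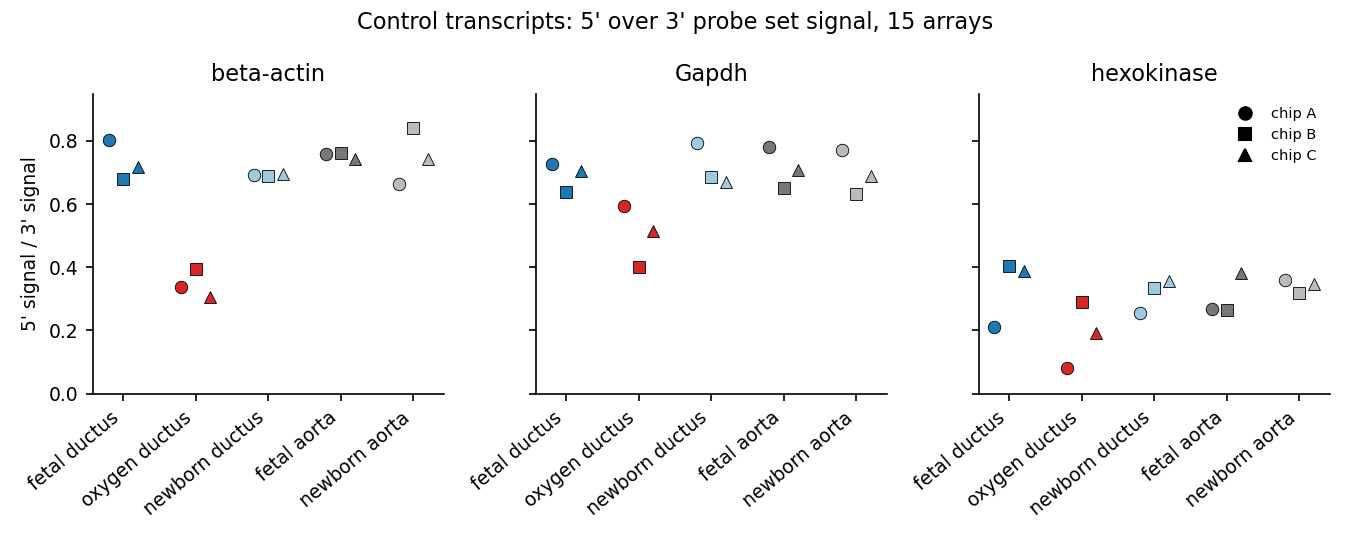
Ratio of 5′ to 3′ signal (vertical axis, no unit) of 3 control transcripts on each of the 15 arrays, by state; the marker gives the chip. The oxygen ductus arrays lie at 0.307 to 0.393 for beta-actin and 0.401 to 0.592 for Gapdh, below all others. They overlap the others for hexokinase, whose 5′ signals were at most 196.

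Of 26202 probe sets, 13788 exceeded the floor in the oxygen ductus, the fetal ductus or both and were compared; the floor was the median signal of the chip's 5 arrays (149.8, 241.7 and 243 on A, B and C), and lower signals were set to it. The median log2 ratio of oxygen over fetal ductus was -0.01. By 2-fold or more, 67 probe sets (0.486%) were higher in the oxygen ductus and 291 (2.11%) lower, with chip A giving 15 and 118 of them, chip B 36 and 100, and chip C 16 and 73. Reading each of 7457 genes at its brightest probe set, 331 genes (4.44%) were higher by 1.5-fold or more and 401 (5.38%) lower, and the median over all of them was 0.04. No replicate gives the error of such a ratio. The other 4 arrays put the standard deviation of a log2 ratio at 0.24 to 0.35 by chip and signal, and different probe sets of the same gene put it at 0.35 in this comparison (2718 differences), so a difference of 1.5-fold (0.58 on the log2 scale) is less than 3 standard deviations for any gene.

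Probe sets built from coding sequence were lower in the oxygen ductus than those built from expressed sequence tags (ESTs), which mostly lie at the 3′ end. On chip A the median log2 ratio was -0.24 for 285 coding-sequence probe sets, 18.2% of them at least 1.5-fold lower, against 0.03 and 6.71% for 2012 EST probe sets. Within the same gene, coding-sequence probe sets lay below EST probe sets in 56 of 72 genes, by a median of -0.35. The same difference had medians of 0.12 (81 genes) for the newborn ductus, 0.07 (81 genes) for the fetal aorta and 0.01 (80 genes) for the newborn aorta, each over the same fetal ductus arrays. The part of 5′ signal in the gene differences that follow was not tested.

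A gene's probe sets also went opposite ways more often than in the other comparisons. For probe sets 2-fold apart between oxygen and fetal ductus, 57.9% of 309 partners on the same gene had the same sign. That share was 84.6% for newborn over fetal ductus, 89.7% for fetal aorta and 87.3% for newborn aorta over fetal ductus. The oxygen ductus was also the state most often low alone, with 430 of 15324 probe sets (2.81%) at least 1.5-fold below all 4 other arrays of the chip against 30 to 175 for the other states, and 118 (0.770%) above all 4 against 56 to 227.

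**Figure D2:**
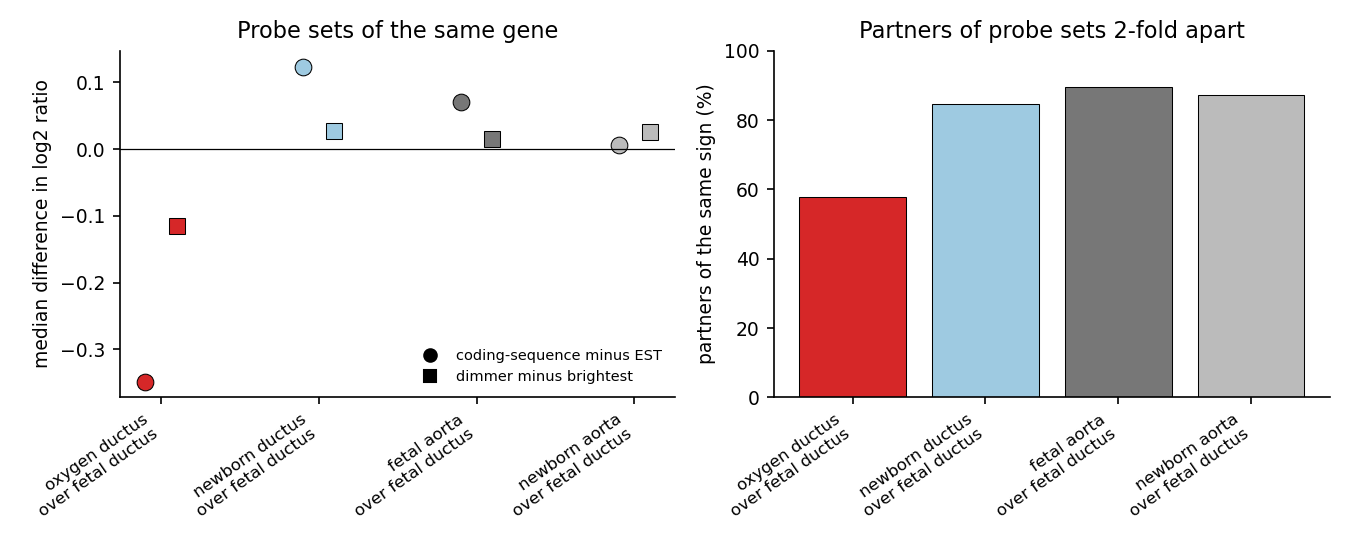
Left, median difference in log2 ratio between probe sets of the same gene, coding-sequence minus EST (circles) and dimmer minus brightest (squares), for each state over fetal ductus. Right, share (%) of same-gene partners with the sign of a probe set that was 2-fold apart. The oxygen ductus lies lowest in all 3 measures, at -0.35, -0.12 and 57.9%; all 4 comparisons share the fetal ductus arrays.

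Nppa, which encodes atrial natriuretic peptide, a cardiac hormone that relaxes vessels, was higher in the oxygen ductus on every probe set it has. Its brightest probe set read 630.2 in the fetal ductus, 1293 in the oxygen ductus, 435 in the newborn ductus, 9.7 in the fetal aorta and 15.5 in the newborn aorta. The oxygen ductus was thus the highest of the 5 states, and the aortas were under the floor. Its 4 probe sets, all on chip A and 3 of them from coding sequence, gave log2 ratios of 1.00 to 1.13. The other heart muscle genes went both ways, with 6 of 16, Nppa included, above 0. The median over 16 of the 17 listed genes on the chips was -0.27, and in the newborn ductus, over the same fetal array, it was -1.14. Myl2, the ventricular myosin light chain, read 1406 in the fetal and 852 in the oxygen ductus (-0.72), and its other probe sets gave -0.76 and -1.09. Myh6, the alpha cardiac myosin heavy chain, read 3349 and 2215 (-0.60), with 4 other measured probe sets at -1.71 to 0.07. Troponin T2 (Tnnt2, 2343 and 2402) and troponin C1 (Tnnc1, 9652 and 12139) were not lower. The summed signal of the 17 heart genes was 41638 in the fetal and 39848 in the oxygen ductus, against 20861 in the newborn ductus and 20228 in the fetal aorta. In these bulk RNA samples fewer cells of a type and less RNA per cell cannot be told apart, and the part of heart tissue in the signal of Nppa was not tested.

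**Figure D3:**
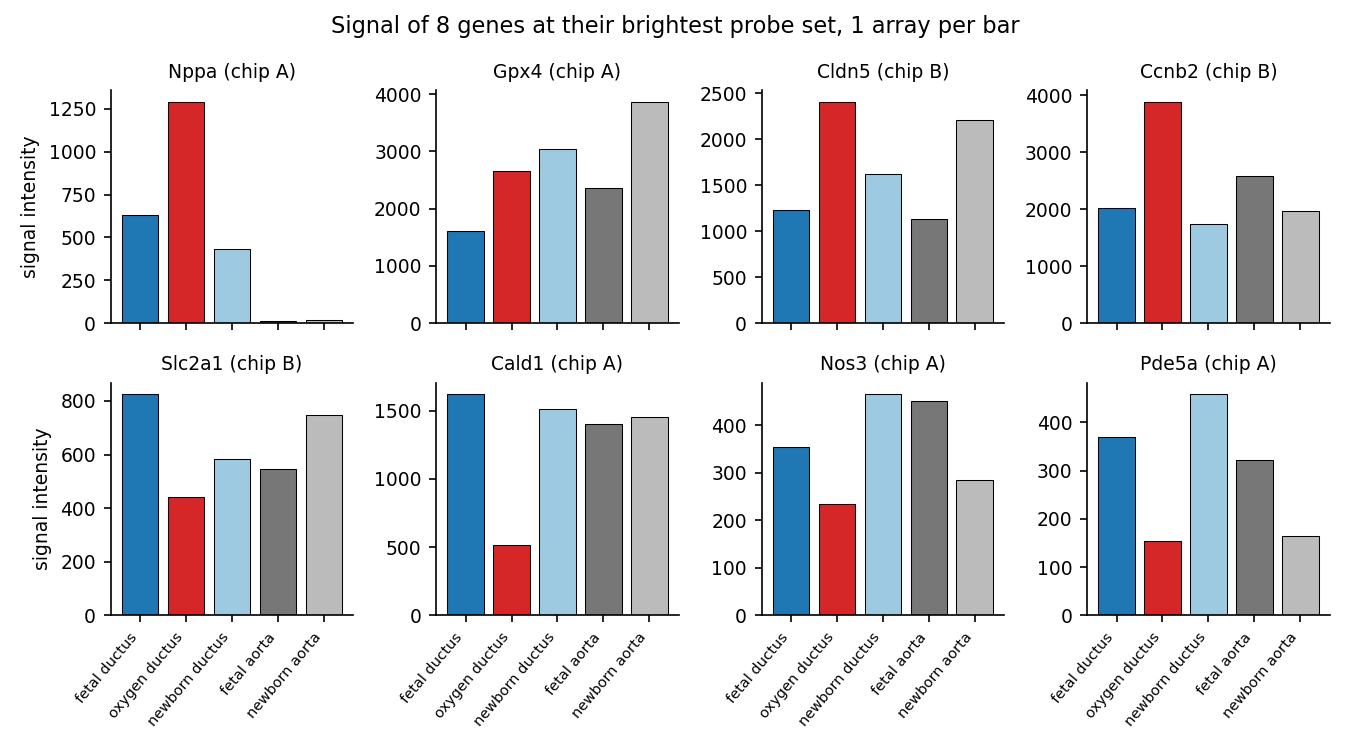
Deposited signal intensity (linear axis from 0) of 8 genes in the 5 states at their brightest probe set, 1 array per bar, no error bars because no state has replicates. Nppa, Cldn5 and Ccnb2 are highest in the oxygen ductus (1293, 2409 and 3886), and Slc2a1, Cald1, Nos3 and Pde5a are lowest there (443, 515, 235 and 154).

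All 20 smooth muscle genes on the chips, markers of the muscular wall of the labelled vessel, were above the floor on both arrays, and their median log2 ratio was 0.19, with 16 above 0. Desmin (Des), the intermediate filament of muscle, read 423 in the fetal ductus, 694 in the oxygen ductus and 1446 in the newborn ductus, a log2 ratio of 0.71 for oxygen. Tpm2, a tropomyosin of the thin filament, read 3804, 5970 and 7076 in the same order (0.65), and its other probe sets gave 0.11 to 0.77. These were the only 2 of the list at least 1.5-fold higher, and 10 of 20 reached that fold in the newborn ductus, where the median was 0.58 and the share over all genes was 7.56% higher and 9.59% lower. After quantile normalization the median for oxygen was 0.048, and as means over probe sets it was 0.11.

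For 3 central contractile genes the probe sets disagreed. Acta2, smooth muscle actin, had log2 ratios of 0.27, -0.15, -0.36 and -0.76. Myh11, smooth muscle myosin, had 0.03 at its brightest probe set (5415 and 5512) and -0.61 at a dimmer one, while the other dimmer one read 599 in the fetal ductus and 89.9, under the floor, in the oxygen ductus. Tpm1, another tropomyosin, had 0.19 at its brightest and -0.33 to -1.02 at the 5 others. Transgelin (Tagln), an actin-binding protein, lay between -0.01 and 0.30 on 3 probe sets. Caldesmon (Cald1), an inhibitor of actomyosin that has a single probe set here, read 1622 in the fetal and 515 in the oxygen ductus, -1.65 on the log2 scale, while the 3 other states read 1405 to 1515. Of the markers of other cells, endothelial genes had a median of 0.03 (14 genes), leukocyte genes 0.02 (13) and erythroid genes 0.17 (13).

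Cldn5, the claudin of endothelial tight junctions, read 1229 in the fetal, 2409 in the oxygen and 1623 in the newborn ductus, the only endothelial marker at least 1.5-fold higher. Nos3, the endothelial nitric oxide synthase, was the only one lower by that fold. It read 354 in the fetal, 235 in the oxygen and 466 in the newborn ductus, and 452 and 286 in the fetal and newborn aorta. All 4 of its measured probe sets were lower, at -0.59 to -0.78, and the oxygen ductus was the lowest state at its brightest. With the floor at the 65th percentile that probe set gave -0.25. Epithelial and lung genes had the lowest median of the lists, -0.59 over 7 genes, with 4 at least 1.5-fold lower (5.38% of all genes were). With the floor at the 65th percentile 3 genes were left and the median was -0.059. Krt19, a keratin, was lower on all 4 probe sets (-0.62 to -1.36), and the club cell protein Scgb1a1 read 270 in the fetal and 10.5 in the oxygen ductus. These markers were near the floor in the fetal ductus (7 of 13 above it) and 4 of 13 were above it in the oxygen ductus; cartilage collagen Col2a1 read 397 and 139, and 4 cartilage genes had a median of -0.14. The part of adjoining airway or cartilage in these readings was not tested.

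The hypoxia response was read from 8 factors and sensors, 22 targets and 16 glycolytic enzymes above the floor. No target was 1.5-fold higher and 3 of 22 were 1.5-fold lower (the background was 5.38% of all genes), with a median of -0.15 and 14 of 22 below 0. Slc2a1, the glucose transporter GLUT1, read 826 in the fetal ductus, 443 in the oxygen ductus, 582 in the newborn ductus, 548 in the fetal aorta and 746 in the newborn aorta. The oxygen ductus was the lowest of the 5, at a log2 ratio of -0.90. Its dimmer probe sets gave -0.62, -0.37 (at the floor in the oxygen ductus) and 0.37. Loxl2, a lysyl oxidase that crosslinks collagen, read 1239 and 685 (-0.85), and Ndrg1, a stress-responsive gene, read 637 and 395 (-0.69), each on 1 probe set.

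Ddit4, an inhibitor of mTOR signalling, read 503 in the fetal, 342 in the oxygen and 971 in the newborn ductus. The lactate exporter Slc16a3 had a log2 ratio of -0.44, and Vegfa, the vascular growth factor, had -0.16 at its brightest probe set and -0.50 and -0.83 at dimmer ones. Bnip3, a mitophagy gene, read 938 in the fetal and 961 in the oxygen ductus and 4044 in the newborn ductus. Pdk1 (0.37), which restrains pyruvate entry into mitochondria, and Mxi1 (0.46), a Myc antagonist, were on the higher side.

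Among the factors and sensors, 0 of 8 differed by 1.5-fold, and the median was -0.14. The prolyl hydroxylase genes gave 0.40 for Egln1, -0.15 for Egln2 and -0.47 for Egln3, whose other probe set gave -0.43. Hif1a was under the floor at its brightest probe set in both and read 192 and 107 at the only one above it (-0.36, at the floor in the oxygen ductus), and Epas1, which encodes the HIF-2 alpha subunit, read 1557 and 1384 (-0.17) at its brightest probe set and 0.41 at the other. Of the glycolytic enzymes only hexokinase 2 (Hk2, 565 and 289, -0.97) was 1.5-fold lower, its second probe set giving -0.07, and the median over 16 was -0.03.

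The promoters of these genes were searched for ACGTG on either strand, a core that hypoxia-inducible factors bind, in the 250 bases before the annotated start (RefSeq, build GRCr8). Other forms of the core were not searched, and the core below means ACGTG. Of the 38 genes above the floor in the target and glycolysis lists, 32 had a promoter to search. Of these, 14 (43.8%) held the core, against 4653 of 27457 promoters (16.9%) overall. The target list is made of genes known to be induced by hypoxia, so this share is not a result about oxygen. ACGTG also forms part of the E-box CACGTG. Slc2a1 and Ddit4, the 2 lowest of the genes with the core, hold a single match each. Both matches are shown here with the core in capitals and 12 bases on either side.
Slc2a1, chr5:138002459-138002487, plus strand, 51 bases before the start: gtcccgccccggACGTGgtcctcaggccc
Ddit4, chr20:28437159-28437187, minus strand, 138 bases before the start: agaacgttgcgaACGTGcgcccggtgcct
Bnip3 and P4ha2, at log2 ratios of 0.04 and 0.25, held 2 matches each, and Hk2, at -0.97, held none in this window. Log2 ratios ran from -0.90 (Slc2a1) to 0.46 (Mxi1) with the core, and from -0.97 (Hk2) to 0.45 (Gpi) without it. A match is a description of letters and not of binding.

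Antioxidant enzymes that remove superoxide and peroxides were on the higher side. Of 14 superoxide dismutase, catalase, peroxiredoxin and glutathione peroxidase genes, 10 lay above 0, 2 were at least 1.5-fold higher and 0 lower. Over all genes 4.44% were higher and 5.38% lower by that fold. The median of the 14 was 0.27 (0.26 in the newborn ductus over the same fetal array). Gpx4, which reduces lipid peroxides in membranes, read 1608 in the fetal, 2652 in the oxygen and 3036 in the newborn ductus, and 2360 and 3872 in the fetal and newborn aorta. The fetal ductus was the lowest of these 5 readings, and the log2 ratio for oxygen was 0.72. Catalase (Cat), which breaks down hydrogen peroxide, read 472 and 748 (0.66), but its second measured probe set read 276 and 263. The peroxiredoxins Prdx1 (0.34 on both its probe sets), Prdx2 (0.36) and Prdx4 (0.49) were on the same side. Sod1, the cytosolic superoxide dismutase, gave 0.35 at its brightest probe set, -0.05 at the next and -0.79 at the third. The mitochondrial Sod2 gave -0.17. The list median was 0.19 after quantile normalization and 0.14 against the mean of fetal ductus and fetal aorta.

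Genes of the thioredoxin and glutathione systems and targets of Nrf2, a transcription factor of the oxidant response, lay near 0. Over 27 such genes the median was -0.05, with 0 at least 1.5-fold higher. Hmox1, heme oxygenase 1, read 425 in the fetal and 310 in the oxygen ductus (-0.45). Keap1, the repressor of Nrf2, read 700 and 321 (-1.12), and its other measured probe set gave 0.10. Heat shock genes had a median of 0.17 (19 genes), led by the small heat shock protein Cryab (2669 and 4023, 0.59, its coding-sequence probe set at 0.12). The 16 p53 and DNA damage genes had a median of 0.00, with 0 at least 1.5-fold apart. In the stress list of the endoplasmic reticulum, 27 genes had a median of 0.08, with Sesn2 (676 and 1085) and Herpud1 (774 and 1163) higher and Pdia4 lower (-0.78, other probe set 0.13).

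Genes of the respiratory chain and ATP synthase, which use oxygen to make ATP, and genes of cytosolic ribosomal proteins shifted by a small amount in the same direction. Of 50 respiratory genes 37 lay above 0, with a median of 0.23 against 0.04 for all genes and -0.14 in the newborn ductus. Of the 50, 2 were higher by 1.5-fold or more, beside 4.44% of all genes. They were Ndufa5, a complex I subunit (1474 and 2306, 0.65), and Cox6b1, a cytochrome oxidase subunit (4909 and 7516, 0.61, its other probe set at 0.15). Atp5po of the ATP synthase stalk gave 0.57, 0.45 and 0.26 on its 3 probe sets. Of 52 ribosomal protein genes 42 lay above 0, with a median of 0.20 against 0.01 in the newborn ductus. Only Rpl11 reached 1.5-fold (0.73, with 0.36 and 0.03 on its coding-sequence probe sets), beside the same 4.44% of all genes. Both lists hold bright probe sets, and the brightest tertile of all compared probe sets had a median of 0.07 to 0.08 by chip while the dimmest had -0.12 to -0.04. After quantile normalization the list medians were 0.19 and 0.12, and the part of signal level in them was not tested.

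**Figure D4:**
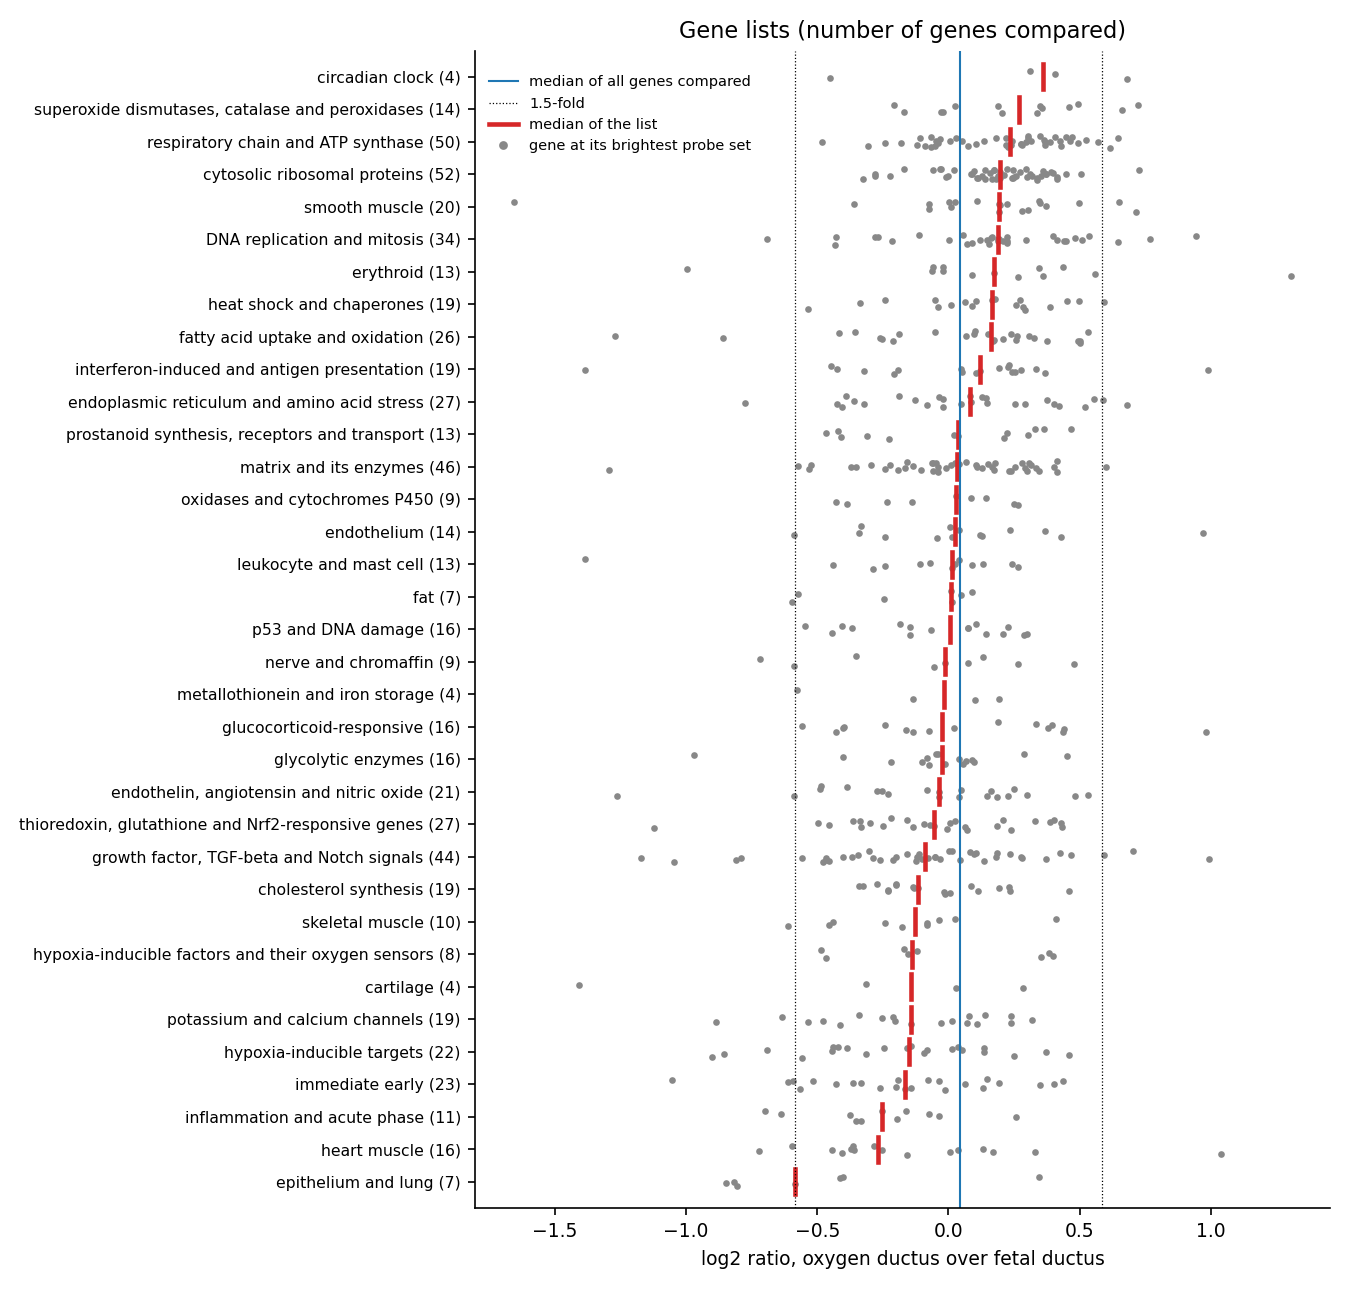
Log2 ratio of oxygen over fetal ductus for the genes of 35 lists (grey points, each gene at its brightest probe set), with list medians (red bars), the median of all 7457 genes (0.04, blue line) and the 1.5-fold lines (dotted). Medians run from -0.59 for epithelium and lung to 0.36 for the circadian clock (4 genes; -0.20 over 10 genes with the lower floor), and most genes lie within 1.5-fold.

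Genes of DNA replication and mitosis were not lower in the oxygen ductus, whereas they were in the newborn ductus. Of 34 genes 27 lay above 0, with a median of 0.19 against 0.04 for all genes. After quantile normalization the list median was 0.12. At least 1.5-fold higher were 3 of the 34, beside 4.44% of all genes. In the newborn ductus the median was -0.70, and 23 were at least 1.5-fold lower, beside 9.59% of all genes. Cyclin B2 (Ccnb2), which drives entry into mitosis, read 2021 in the fetal, 3886 in the oxygen and 1737 in the newborn ductus, and 2573 and 1972 in the aortas. The oxygen reading was the highest of the 5, with a log2 ratio of 0.94. The clamp loader Rfc2 (545 and 927, 0.77) and the phosphatase Cdkn3 (1264 and 1979, 0.65) were the other genes past 1.5-fold, and Smc2, of the condensin complex, was lower (-0.69, at the floor in the oxygen ductus). Mki67, the proliferation marker, read 4200.3 in the fetal, 5159 in the oxygen and 1727 in the newborn ductus.

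The early stress and hormone genes that mark birth in the newborn ductus did not follow in the oxygen ductus. Immediate early genes are transcription factors induced within minutes of a stimulus. Their median was -0.16 over 23 genes, with 0 at least 1.5-fold higher and 3 lower. In the newborn ductus it was 0.77, with 15 of 25 higher. Over all genes 4.44% were higher and 5.38% lower by that fold in the oxygen ductus, and 7.56% and 9.59% in the newborn ductus. Klf2, induced by blood flow in endothelium, read 480 in the fetal, 315 in the oxygen and 1336 in the newborn ductus. Jun, a subunit of AP-1, read 779 and 517 (-0.59), while 2 of its dimmer probe sets gave 0.18 and 0.37. Glucocorticoid-responsive genes had a median of -0.03 over 16 genes against 1.14 in the newborn ductus, where 13 of 16 were at least 1.5-fold higher. Fkbp5, a chaperone of the glucocorticoid receptor, read 438 in the fetal, 371 in the oxygen and 1612 in the newborn ductus. Klf9, another target of the receptor, read 687, 930.0 and 3379 in the same order. The exception was Angptl4, an inhibitor of lipoprotein lipase, which read 226 (under the floor) in the fetal, 477 in the oxygen and 178 in the newborn ductus. The clock gene Per2 read 237, 380 and 550, and the 4 clock genes above the floor had a median of 0.36, which was -0.20 over 10 genes with the floor at the 25th percentile.

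The pathways that set the tone of the ductus showed few differences. Of 13 prostanoid genes above the floor 0 were 1.5-fold apart, and the median was 0.04. Ptgis, prostacyclin synthase, read 3808 in the fetal and 4701 in the oxygen ductus (0.30), Ptgs1, cyclooxygenase 1, read 368 and 431 (0.23) and the prostaglandin carrier Slco2a1 read 1140.4 and 1169 (0.04, its other probe set at -0.73). Cyclooxygenase 2 (Ptgs2) and the prostaglandin E receptor Ptger4 were under the floor on both arrays. Edn1, the precursor of endothelin 1, read 413 and 390 (-0.08), against 672 in the newborn ductus. Ednra and Ednrb, the endothelin receptors, had no probe set of their own.

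Of 21 endothelin, angiotensin and nitric oxide genes (median -0.04), Nos3 and Pde5a were lower by 1.5-fold or more, beside 5.38% of all genes. With the floor at the 65th percentile Nos3 was at -0.25 and Pde5a at -0.31. Pde5a, the phosphodiesterase that ends the cyclic GMP signal of nitric oxide, read 370 in the fetal, 154 in the oxygen and 459 in the newborn ductus, and 321 and 165 in the aortas, a log2 ratio of -1.26 on its only probe set above the floor. The guanylate cyclase subunits Gucy1a1 (0.16) and Gucy1b1 (0.15), between the 2 in the same pathway, were near the fetal level. Rock2, a kinase that sensitises muscle to calcium, gave 0.53 at its brightest probe set and -0.43, -0.73 and -0.91 at the 3 others.

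Potassium and calcium channel genes had a median of -0.14 over 19 genes, with 0 higher and 2 lower by 1.5-fold (4.44% and 5.38% of all genes). The list median was 0.00033 after quantile normalization, 0.044 with EST probe sets alone and -0.017 with the floor at the 65th percentile. At that floor Orai1 was at -0.034 and Kcnj11 at -0.20. Orai1, a store-operated calcium channel, read 305 in the fetal, 165 in the oxygen and 546 in the newborn ductus (-0.89), and Kcnj11, a pore subunit of ATP-sensitive potassium channels, read 342, 220.1 and 54.6 (-0.63). The smooth muscle pore Kcnj8 (507 and 498) and its partner Abcc9 (510.2 and 403, other probe set 0.03) were within 1.5-fold. Kcna5, an oxygen-sensitive potassium channel, read 299 and 260.1 (-0.20), Kcna2 was under the floor, and Cacna1c, the L-type calcium channel, read 512 and 541 (0.08).

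Matrix genes had a median of 0.03 over 46 genes. Elastin (Eln) read 25913 in the fetal and 21940 in the oxygen ductus (-0.24). The microfibril protein Mfap5 was the only member at least 1.5-fold higher (2587 and 3921, 0.60). The collagen gene Col6a1 was the only one lower by that fold (592 and 35.8, -1.29, at the floor in the oxygen ductus). Growth factor, TGF-beta and Notch genes had a median of -0.09 over 44, with 3 higher and 4 lower. The 4 lower ones, beside 5.38% of all genes, were the inhibitory Smad6 (1149 and 511, -1.17, other probe sets -1.04 and 0.19) and Smad7 (259 and 85.5, at the floor), the ligand Bmp4 (1028 and 498, -1.05, but 0.26 on chip A) and the receptor Bmpr1a (598 and 342, -0.81). The higher ones were Notch2 (1756 and 2648, 0.59), Igf1r (0.70, with -0.52 and -0.40 at dimmer probe sets) and Fgfr2 (0.99, with -0.16 to -1.10 at dimmer ones).

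**Figure D5:**
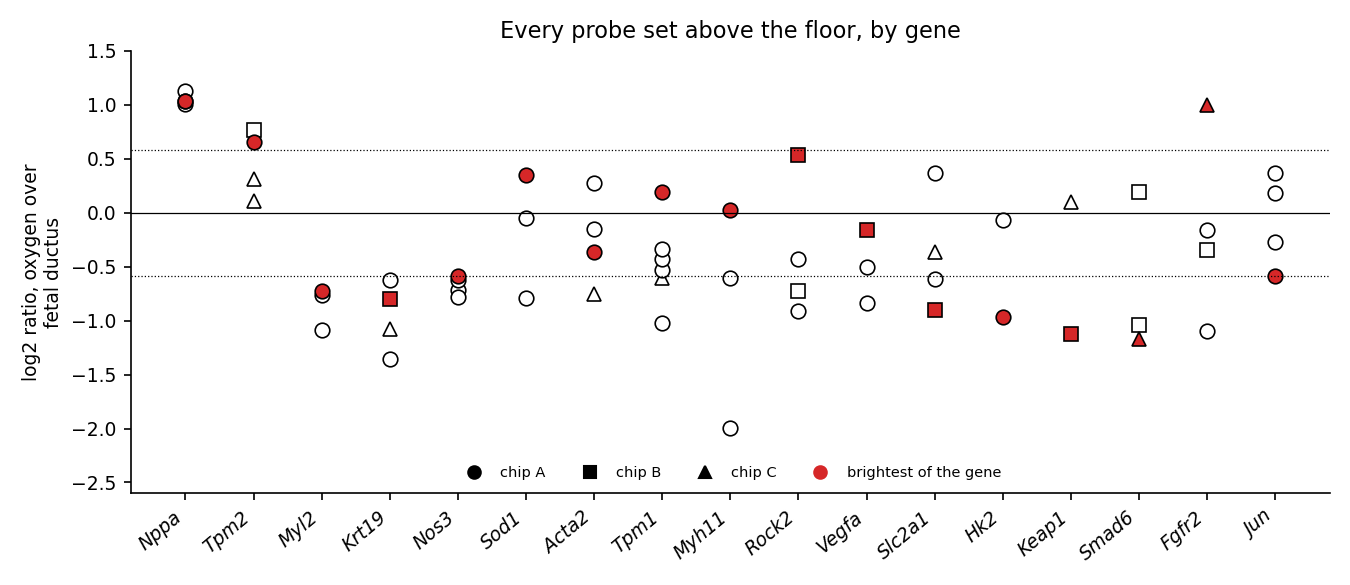
Log2 ratio of oxygen over fetal ductus (vertical axis, after the floor) for every probe set above the floor of 17 genes, chosen after their values were seen; marker shape gives the chip, red fill the brightest probe set and dotted lines 1.5-fold. The probe sets of Nppa (1.00 to 1.13), Myl2, Krt19 and Nos3 lie together, while those of Myh11 and of Fgfr2 (0.99 to -1.10) lie far apart.

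Among single genes above the floor on both arrays and bright on at least 1, Bysl, a ribosome assembly factor, had the largest higher reading. It read 289 in the fetal, 1058 in the oxygen and 151 in the newborn ductus (1.87). The erythropoietin receptor Epor came next (301, 743 and 415, 1.31). Atp6v1h, a subunit of the proton pump of lysosomes, followed (503, 1240.3 and 797, 1.30). Each was read on 1 probe set of chip B. With the floor at the 65th percentile Bysl was at 1.30 and Epor at 0.79, while Atp6v1h was unchanged. Tomm40, the import pore of mitochondria, was higher on both its probe sets (1.04 and 0.66). Aaas, a nuclear pore protein, was at least 4.54-fold higher, but there the fetal ductus stood alone, under the floor at 184 against 625 to 1098 in the 4 other states. Among genes above the floor on both arrays, Ppp1r35, Rabl6, Nppa and Vcf1 were furthest above all 4 other states of their chip.

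The largest lower readings were those of Tmem214, a membrane protein of the endoplasmic reticulum (1270 in the fetal, 295 in the oxygen and 1214 in the newborn ductus, -2.11), whose other probe sets gave -0.05 and -0.87. Cald1, described above, came next. Tppp3 (857, 278 and 1219, -1.63) and Tuba1a (1460, 489 and 975, -1.58) followed, a tubulin-binding protein and an alpha-tubulin. The lysosomal peptidase Tpp1 (1707, 588 and 1755, -1.54) and Mat2a, which makes the methyl donor S-adenosylmethionine (566, 212 and 490, -1.42), followed, and for both the oxygen ductus was the lowest of the 5 states. Cd74, the invariant chain of antigen presentation, read 1373, 526 and 469 (-1.38, but -0.89 as the mean over its 2 measured probe sets). With the floor at the 65th percentile Tppp3 was at -1.01 and Mat2a at -0.93.

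Because probe sets of a gene so often disagreed, genes were also counted by all their probe sets, a rule added after the values were seen. Of 2268 genes with 2 or more probe sets above the floor, 3 were higher by 1.5-fold or more on all of them (Nppa, Tomm40 and Nob1, an endonuclease of ribosome maturation) and 17 lower on all, while 27 were 1.5-fold apart in both directions. Krt19 and Nos3 on 4 probe sets and Myl2 on 3 were among the 17. Rbfox2, a splicing factor, read 5080 in the fetal, 2210.3 in the oxygen and 3259 in the newborn ductus, with log2 ratios of -1.20 and -0.83. Lrp6, a Wnt co-receptor (-0.60 and -1.76), Pdlim5, a muscle Z-disc protein (-0.73 and -0.84), Enpp1, which makes pyrophosphate (-0.71 and -0.91), and Ube3a, a ubiquitin ligase (-0.70 and -0.83), also belonged to them.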

How the data were processed

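Total RNA was hybridised to Affymetrix arrays, per the labels' protocols. The values are linear signal intensities as deposited by the authors, 1 table per array; on chip A the submitters' processing notes give MAS5, except for the fetal aorta, and the software for chips B and C is not given in the sources used here. Each array had been scaled to a like trimmed mean before deposit. Control probe sets were used only for the 5′ to 3′ ratios. States come from titles.

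Signals under the pooled median of a chip's 5 arrays were set to that floor, and log2 ratios of oxygen over fetal ductus were taken within each chip. The probe set with the highest mean over the 5 arrays stood for its gene. Of the probe sets 18178 had 1 gene, 391 several and 7633 none, and 18122 of the 18178 were found by gene number in the RefSeq table. Calls are descriptive: 2-fold for probe sets, 1.5-fold for genes. The standard deviation of a log2 ratio was estimated from the contrast of newborn over fetal ductus against newborn over fetal aorta, and from probe sets of the same gene. Both also hold real differences. Only the estimate from the contrast was run on simulated data. That simulation had no real differences between the arrays of the contrast, so it cannot show how such differences change the estimate.

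Named were the 12 genes each way with the largest ratio (neither array at the floor, the higher signal past the 75th percentile of the chip, and no measured probe set of the gene in the other direction), up to 6 bounds each way, up to 4 members per list and direction past 1.5-fold, the 8 genes each way furthest outside all other states, and a set of genes studied in the ductus regardless of their values; only some of these are printed. Other genes named to describe a list, and the rule on all probe sets of a gene, were picked with their values in view. The members and the 35 lists were chosen with earlier results of these data known. Alternatives were other floors (25th and 65th percentiles), quantile normalization, centring, the mean over probe sets and another reference, with EST probe sets alone and each chip left out added after the data were seen. Python 3.11.15, numpy 2.4.6, pandas 2.3.3 and matplotlib 3.10.9 were used.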

Additional observations from a re-analysis of the deposited data

How the results depend on the processing

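The count of probe sets at least 2-fold apart depended on the floor: 67 higher and 291 lower became 328 and 1128 with the floor at the 25th percentile, where 20625 probe sets were compared, and 26 and 132 with the floor at the 65th, where 9816 were. Without chip A 173 were lower, and without chip B 31 were higher and 191 lower, fewer probe sets being compared. Quantile normalization gave 75 and 235, centring 69 and 285, the mean of fetal ductus and fetal aorta as reference 73 and 304, and EST probe sets alone 56 and 205. The difference between coding-sequence and EST probe sets on chip A, -0.26, was -0.22 after quantile normalization and -0.25 with the lower floor.

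Of 242 recomputed list medians 37 changed sign, over 18 of the 35 lists, most of them from medians near 0. From medians of at least 0.1 in size 6 did: the circadian clock to -0.20 with the lower floor, potassium and calcium channels to 0.00033 after quantile normalization and to 0.044 with EST probe sets, cartilage to 0.030 with EST probe sets, and heart muscle to 0.38 and erythroid genes to -0.24 against the mean of fetal ductus and fetal aorta. The smooth muscle median became 0.048 after quantile normalization and 0.11 as means over probe sets, and that of epithelium and lung -0.059 with the higher floor. Of 721 recomputed values of named genes 18 changed sign, 4 of them from genes 1.5-fold apart: Fgfr2 became -0.15 and Igf1r -0.073 as means over probe sets, and Myh6 became 0.17 and Myl2 0.67 against fetal ductus and aorta. As means over probe sets Rock2 became -0.38, Sod1 -0.16, Epas1 0.12, Cyp1b1 -0.038, Slco2a1 -0.34 and Myh11 -0.86, Acta2 became 0.27 with EST probe sets, Sod2 0.042 after quantile normalization and Edn1 0.26 against fetal ductus and aorta. In all, 86 values of named genes, some of these sign changes among them, moved by more than the estimated error without being counted as reversals. The causes were not tested. No paired analysis was possible because each state had 1 array per chip. Signals near the floor carry bounds only.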

Other observations

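Genes of lipid metabolism and of immunity showed small shifts in the oxygen ductus. Of 26 genes of fatty acid uptake and oxidation 17 lay above 0, with a median log2 ratio of 0.16, while the mitochondrial acyl-CoA thioesterase Acot2 (777 in the fetal and 322 in the oxygen ductus, -1.27, its other measured probe set at 0.44) and Hadh, an enzyme of beta-oxidation (1071 and 590.1, -0.86), were lower. The 19 cholesterol synthesis genes had a median of -0.12 with 0 at least 1.5-fold apart, against -0.78 in the newborn ductus over the same fetal arrays. Interferon-induced and antigen presentation genes had a median of 0.12 over 19 genes. The class I gene RT1-A1 read 287 in the fetal, 569 in the oxygen and 1116 in the newborn ductus, while Cd74 was lower (-1.38, and -0.89 as the mean over its probe sets). Of 11 inflammation and acute phase genes 10 lay below 0, with a median of -0.25 against 0.04 for all genes and 0.35 in the newborn ductus. For oxygen the list median was -0.12 over 8 genes with the floor at the 65th percentile and -0.14 after quantile normalization. The protease inhibitor A2m (534 and 329, -0.70, other measured probe sets -0.27 and 0.01) and the adhesion molecule Vcam1 (292 and 187, -0.64, other probe set 0.11) were past 1.5-fold, beside 5.38% of all genes.

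The remaining lists lay near the median of all genes. Oxidase and cytochrome P450 genes had a median of 0.03 over 9 genes, with the dioxin-responsive Cyp1b1 at 0.25 (489 and 582) and its relative Cyp1a1 under the floor. Metallothionein and iron storage genes had -0.02 over 4 genes. Among markers of other tissues, skeletal muscle genes had a median of -0.13 over 10 genes, fat genes 0.01 over 7, and nerve and chromaffin genes -0.01 over 9.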
